A study of Mus musculus with 4 samples.

Results

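The genes described here are 10 transcription factor and immediate early genes, *Fos*, *Fosb*, *Fosl1*, *Fosl2*, *Jun*, *Junb*, *Jund*, *Atf3*, *Egr1* and *Ier2*, out of 32285 genes counted in mouse fracture callus. They were chosen from these data by their higher level in 1 of the 4 libraries, RA callus at 7 dpf (days post fracture), so the comparison of RA with control callus at 7 dpf is given as a description. The data are single-cell RNA-seq libraries of callus that formed after fracture of the right tibia in wild-type C57BL/6J mice aged 3 months. RA mice carried serum-transfer arthritis: they received 100 µL of K/BxN serum, which holds arthritogenic autoantibodies, by intraperitoneal injection at 0 and 3 dpf and every 5 days after that, and control mice received vehicle. On that schedule the calluses, taken at 4 and 7 dpf, came after the injections at 0 and 3 dpf and before any later one. The libraries are control_4d, control_7d, RA_4d and RA_7d, and per the labels each was made from 4 pooled calluses, released with collagenase and loaded at 10000 cells. The study's text gives a different number of mice per library from the labels. With 1 library per condition no difference between mice could be tested and library and condition cannot be told apart. Every interval below is a 95% interval that covers counting error only, not the spread between cells or animals.

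AP-1 is a family of dimers of basic leucine zipper proteins. Fos proteins (*Fos*, *Fosb*, *Fosl1*, *Fosl2*) need a Jun partner, whereas Jun proteins (*Jun*, *Junb*, *Jund*) also pair with each other, and *Atf3* belongs to the ATF group that joins the same network. *Egr1* codes for a zinc finger factor and *Ier2* for a nuclear protein of the same early response. Many of these genes are transcribed within minutes of serum, growth factors, cytokines, mechanical load or cell stress, before new protein is made, and enzymatic release of cells from tissue is known to induce them as well. In bone, *Fos* is needed for osteoclast formation, and *Fosl2* and *Junb* act in osteoblasts and chondrocytes.

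The sequence just before the RefSeq start is shown for 5 members, so that it can be read beside the values. *Egr1*, which had the largest ratios, had no entry to show. The lines give the 120 bases before the RefSeq start on GRCm38.p6, 5′ to 3′ on the gene's own strand. Capitals mark the letters TATAAA and the half-site of the cAMP response element, TGACG, which reads CGTCA where it lies on the opposite strand; the *Jun* stretch holds neither. The RefSeq start of *Atf3* used here lies inside the gene as the GENCODE annotation draws it, so its stretch is not the sequence before the outermost start.
*Fos*, chr12:85473770-85473889, plus strand: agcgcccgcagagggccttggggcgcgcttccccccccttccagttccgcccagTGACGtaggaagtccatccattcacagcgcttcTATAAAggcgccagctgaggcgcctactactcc
*Fosb*, chr7:19310046-19310165, minus strand: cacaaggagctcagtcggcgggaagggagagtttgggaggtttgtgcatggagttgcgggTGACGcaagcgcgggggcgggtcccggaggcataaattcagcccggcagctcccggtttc
*Jun*, chr4:95052223-95052342, minus strand: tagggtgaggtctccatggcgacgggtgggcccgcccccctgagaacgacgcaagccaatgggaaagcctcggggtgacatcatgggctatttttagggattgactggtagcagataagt
*Junb*, chr8:84978749-84978868, minus strand: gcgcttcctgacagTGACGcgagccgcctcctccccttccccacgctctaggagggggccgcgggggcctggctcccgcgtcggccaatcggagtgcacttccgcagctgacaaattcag
*Atf3*, chr1:191183334-191183453, minus strand: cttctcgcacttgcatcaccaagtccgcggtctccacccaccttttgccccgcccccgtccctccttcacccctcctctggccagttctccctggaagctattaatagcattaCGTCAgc
Of the 7 members with an entry in the RefSeq promoter table (*Fos*, *Fosb*, *Fosl2*, *Jun*, *Junb*, *Jund* and *Atf3*), 4 held TGACG on either strand between 250 bases before and 50 bases after the start, against 20.8% of 32851 mouse promoters of the same length. TATAAA was present in 2 of the 7, *Fos* and *Junb*, against 13.6% of all promoters. In *Junb* it lay just after the RefSeq start and outside the stretch shown. The full cAMP response element TGACGTCA (1.79% of all promoters), the AP-1 site TGANTCA (7.81%), the EGR site GCGTGGGCG (0.612%) and the CArG box bound by serum response factor (1.63%) were in none of the 7 windows. Every TGACGTCA also holds TGACG, so those searches overlap. *Egr1*, *Fosl1* and *Ier2* were not matched in the table. As for *Atf3*, the RefSeq starts of *Jund*, *Fosl2*, *Junb* and *Fosb* are not the outermost GENCODE starts. The bases before the *Jund* start end at position 70697738, ahead of the GENCODE gene, which begins at 70698949. Those of *Fosl2* end at 32136471, inside the GENCODE gene, which begins at 32135801. On the minus strand, those of *Junb* end at 84978749, ahead of the GENCODE gene, which begins at 84978718. The TATAAA of *Junb* thus also lies ahead of its GENCODE start. Those of *Fosb* end at 19310046, inside the GENCODE gene, which begins at 19310051. A match describes letters in a window and not a bound site. Sites further from the start, or with letters that differ from these patterns, were not searched, so a missing match does not show that a gene lacks such a site.

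The libraries held 25479 cells after filtering, with 83405494 to 156567619 UMIs (unique molecular identifiers, each standing for 1 captured transcript) per library and median depths of 16094 to 17632 UMIs per cell. A level is given as CPM, the UMIs of a gene per 1000000 UMIs of a class of cells. The method tags a transcript once, at its 3′ end, so gene length does not enter the level. Cells were sorted into 22 classes from marker genes, with the members left out of the genes used to cluster, and 19 classes with at least 20 cells in every library (24565 cells, 96.4%) were used: 7 myeloid, 1 lymphoid, 5 mesenchymal, 3 endothelial, 1 mural, 1 muscle and 1 Schwann cell class. The macrophage gene *Cd68* stood at 440.3 CPM in myeloid and 10.9 CPM in mesenchymal classes, the limb mesenchyme factor *Prrx1* at 4.12 and 592 CPM, and *Pecam1* at 1139.8 CPM in endothelial classes. Of the 19 classes, 3 kept no cell type name and are called by leading genes: a *Retnla* *Ly6c2* class and an *Ifitm1* *Ccr7* class, both myeloid, and a *Ttn* *Myog* class with muscle markers. The natural killer cell-like class also held the T cell gene *Cd3e*, at 97.3 CPM. The neutrophil-like class had the granule genes *Camp*, *Elane* and *Prtn3* among its leading genes, so it may hold granulocyte precursors and not mature neutrophils alone. Any 2 libraries shared 5 to 15 barcodes of kept cells.

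The classes were present in very unequal shares, which bears on any level read over a whole library. Mesenchymal cells made up 18.1% of control_4d, 42.2% of control_7d, 19.6% of RA_4d and 49.5% of RA_7d, and myeloid cells 61.4%, 35.1%, 58.7% and 19.5%. Over all kept cells the 10 genes together stood at 2770.3 CPM (control_4d), 2997 CPM (RA_4d), 2592 CPM (control_7d) and 3635 CPM (RA_7d). RA_7d was the highest library for 9 of the 10 genes read this way, *Fosl2* being the exception, beside 36.4% of 17453 genes. To compare libraries as if they held the same cells, levels were also averaged over the 19 classes with 1 fixed mix, the mean share of each class over the libraries. In that mix the control libraries had a summed level of 2921 CPM at 4 dpf and 2666 CPM at 7 dpf, and the RA libraries 3242 and 3385 CPM. At 7 dpf RA callus stood above control callus 1.40-fold over all cells and 1.27-fold in the fixed mix (1.26 to 1.28). The corresponding ratios at 4 dpf were 1.08-fold and 1.11-fold (1.10 to 1.12). In the fixed mix RA_7d stood just above RA_4d, and control_7d was the lowest library.

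**Figure D1:**
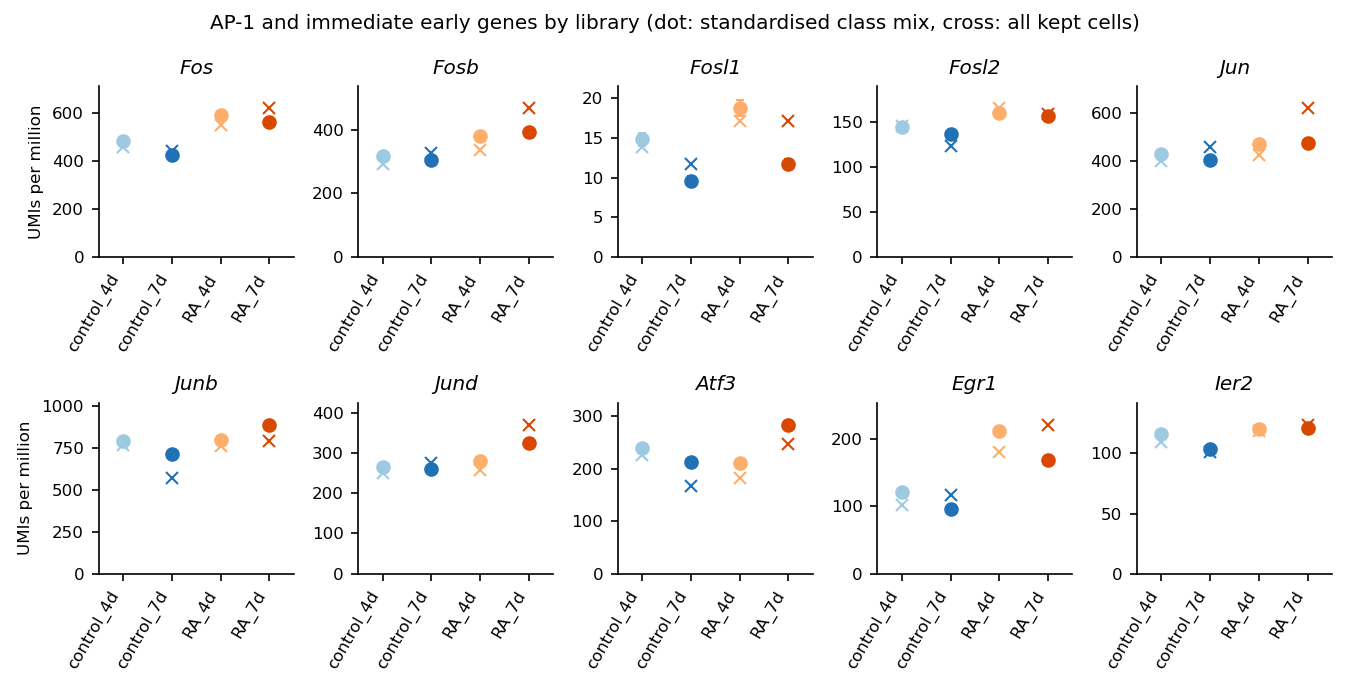
Level of each of the 10 genes in CPM (y axis, from 0) in the 4 libraries (x axis); dots are levels in the fixed mix of 19 classes with 95% counting intervals, mostly narrower than the dots, and crosses are levels over all kept cells. *Jun* shows the largest distance between both readings in RA_7d, 476 CPM in the fixed mix and 621 CPM over all cells.

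All 10 genes were higher in RA_7d than in control_7d in the fixed mix, beside 53.0% of 18893 genes compared, with a median log2 ratio of 0.32 against 0.01 for all genes compared. These ratios were mostly small: 1 of the 10, *Egr1*, reached 1.5-fold, beside 2.10% of all genes. The next member below that limit was *Atf3*, at 1.33-fold. RA_7d was the highest of the 4 libraries for 6 of the 10 (*Fosb*, *Jun*, *Junb*, *Jund*, *Atf3* and *Ier2*), beside 32.8% of 17453 genes, and RA_4d was the highest for the other 4. Control_7d was the lowest library for 9 of the 10, and RA_4d was the lowest for *Atf3*. The shares of all genes highest in RA_4d or lowest in either library were not computed. Since the genes were picked on this contrast, nothing is read from these counts.

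Among the Fos genes, *Fos* stood at 482, 427, 593 and 563 CPM in control_4d, control_7d, RA_4d and RA_7d, so that both RA libraries lay above both control libraries. *Fosb*, in the same order of libraries, stood at 317, 305, 379 and 391 CPM, again with both RA libraries on top. *Fosl2* differed less, at 144, 137, 159.9 and 157 CPM. *Fosl1* was the scarcest member and was lower at 7 than at 4 dpf in both groups, at 14.8 and 9.64 CPM in control callus and 18.7 and 11.7 CPM in RA callus. Its RA_7d level therefore lay below its control_4d level, although RA was above control at each time.

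The Jun genes differed from each other by time. *Jun* stood at 431, 405, 474 and 476 CPM in control_4d, control_7d, RA_4d and RA_7d. *Junb*, the most abundant member, stood at 791, 709.5, 794 and 886 CPM. RA and control callus were within counting error for *Junb* at 4 dpf (log2 ratio 0.01, -0.01 to 0.02) and 1.25-fold apart at 7 dpf. *Jund*, which is also made in resting cells, stood at 266, 261, 281 and 325 CPM. For *Junb* and *Jund* RA_7d thus stood above the other 3 libraries. For *Jun* and *Jund*, as for *Fos*, both RA libraries lay above both control libraries.

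*Egr1* had the largest ratios at both times. Control callus held 121 CPM at 4 dpf and 96.2 CPM at 7 dpf, and RA callus 211 and 169 CPM, 1.74-fold higher in RA at 4 dpf and 1.75-fold at 7 dpf. At 4 dpf it was the single member past 1.5-fold, beside 1.11% of 17545 genes compared there. By any size 9 of the 10 members were higher in RA at 4 dpf, beside 58.3%. The exception was *Atf3*, a stress-induced factor, which stood at 238, 212, 211 and 283 CPM: it was lower in RA than in control callus at 4 dpf (log2 ratio -0.18, -0.21 to -0.15) and higher at 7 dpf (0.42, 0.39 to 0.44). *Ier2* stood at 116, 104, 120.3 and 121 CPM, 1.17-fold higher in RA at 7 dpf and 1.03-fold at 4 dpf.

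Between classes the levels differed more than between libraries. The summed members were highest in the pericyte- or smooth muscle-like class, at 5280.5 ± 702 CPM (mean and SD over the 4 libraries), followed by fibroblast-like cells (4616 ± 820.3 CPM) and tenocyte precursor-like cells (4133 ± 933 CPM), each overlapping the next class in range over libraries. They were lowest in neutrophil-like cells (1421 ± 276 CPM). *Fos* was highest in the pericyte- or smooth muscle-like class (851 to 1257 CPM) and lowest in natural killer cell-like cells (113 to 189 CPM). *Junb* had another order. It was highest in natural killer cell-like cells (1603 to 1966 CPM), where it made up 53.5% of the members' UMIs, and its range there did not overlap that of the next class. *Atf3* was highest in resident macrophage-like cells (504 to 666 CPM) and *Egr1* in tenocyte precursor-like cells (224 to 899 CPM), both overlapping the next class. *Fosb* and *Jun* were highest in fibroblast-like cells (559.6 to 886 and 631 to 870.4 CPM), *Jund* in tenocyte precursor-like cells (411 to 513 CPM) and *Fosl1* in fibroblast precursor-like cells (26.0 to 54.4 CPM). *Ier2* and *Fosl2* were highest in natural killer cell-like cells (199 to 289 and 230.5 to 337 CPM). In each of these last 6 orders the first class overlapped the next in range over libraries.

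**Figure D2:**
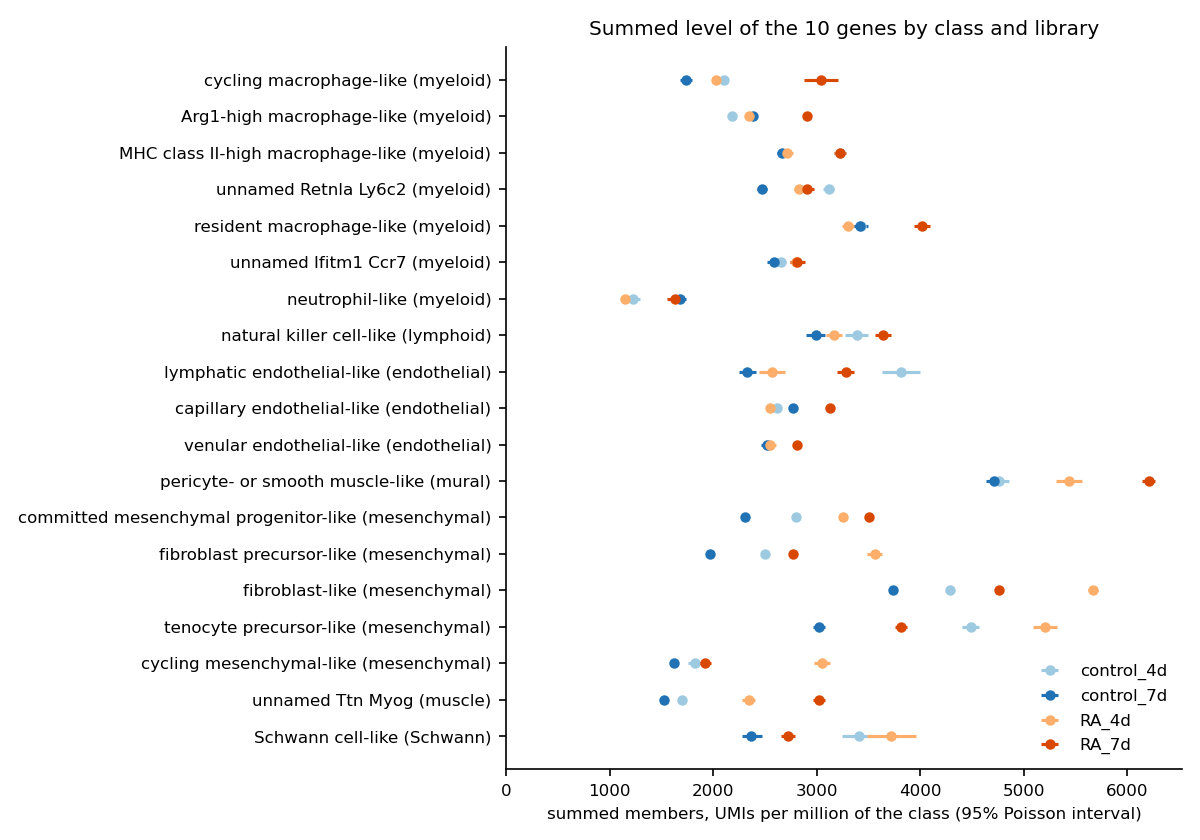
Summed level of the 10 genes in CPM of the class (x axis, from 0) for each class (y axis, lineage in brackets) and library (colour), with 95% Poisson intervals. RA_7d is the rightmost point in 11 of the 19 classes and RA_4d in 5, among them fibroblast-like cells (5673 CPM in RA_4d and 4764 in RA_7d).

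Whether the higher level in RA_7d was shared by all cell types was read class by class. At 7 dpf the summed members were higher in RA than in control callus in 18 of the 19 classes, with the interval above 0 in all 18, and the median log2 ratio over classes was 0.28. The exception was neutrophil-like cells, which stood at 1679 CPM in control_7d and 1637 CPM in RA_7d (log2 ratio -0.04, -0.13 to 0.06, with 74 and 38 cells). That class may hold granulocyte precursors. The difference reached 1.5-fold in 3 classes. The *Ttn* *Myog* muscle class stood at 1530.0 and 3023 CPM (1.98-fold), committed mesenchymal progenitor-like cells at 2309.7 and 3506 CPM (1.52-fold), and cycling macrophage-like cells at 1737 and 3039 CPM (1.75-fold, with 23 cells in RA_7d). The smallest differences with an interval above 0 were in *Ifitm1* *Ccr7* cells (1.09-fold), venular endothelial-like cells (1.12-fold) and capillary endothelial-like cells (1.13-fold). The direction was thus nearly the same across classes, while the log2 ratio ranged from -0.04 to 0.98, and no other class had an interval that overlapped either end. Being highest of all 4 libraries was less general: RA_7d was highest in 11 classes, RA_4d in 5, control_4d in 2 and control_7d in 1. The reference library moved as well. In control callus the summed members were lower at 7 than at 4 dpf in 16 of 19 classes, with intervals below 0 in 12 and above 0 in 3. In RA callus they were higher at 7 dpf in 14 of 19, with intervals above 0 in 12 and below 0 in 5. The 3 classes left out for low cell numbers had the same direction at 7 dpf, with log2 ratios of 0.23 in chondrogenic-like, 0.23 in osteoclast-like (10 cells in RA_7d) and 0.48 in *Apod* *Tenm2* cells.

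At 4 dpf the classes split. They are grouped here by lineage, a grouping that was not among the comparisons fixed beforehand. In all 7 mesenchymal, mural and muscle classes the summed members were higher in RA than in control callus with the interval above 0, at log2 ratios from 0.19 to 0.74. Of the 11 myeloid, lymphoid and endothelial classes, 8 had an interval below 0, 2 above 0 and 1, venular endothelial-like cells, across 0, and the ratios ran from -0.57 to 0.10. Both intervals above 0 were among the 7 myeloid classes, of which 5 had an interval below 0. Fibroblast-like cells stood at 4290.2 CPM in control_4d and 5673 in RA_4d, and fibroblast precursor-like cells at 2503 and 3561 CPM. Arg1-high macrophage-like cells, the largest myeloid class at 4 dpf, stood at 2188 and 2344 CPM, and MHC class II-high macrophage-like cells at 3223 and 2718 CPM. Lymphatic endothelial-like cells had the lowest ratio, at 3812 and 2567 CPM, with 31 and 34 cells. Schwann cell-like cells had a log2 ratio of 0.12 (0.01 to 0.24) with 29 and 20 cells. At 7 dpf the same 7 and 11 classes had medians of 0.40 and 0.24. For the summed members, the classes whose direction differed between 4 and 7 dpf were therefore all immune or endothelial. This difference between times was not tested, since there were no replicate libraries. Single members did not all follow the sum at 4 dpf. In the 11 immune and endothelial classes, intervals below 0 numbered 9 for *Atf3*, 8 for *Fosb*, 7 for *Junb* and 5 for *Jun*. Above 0 these had 0, 1, 1 and 1. *Egr1*, *Fosl2* and *Jund* had 7, 6 and 6 above 0, against 1, 2 and 3 below. *Fos* had 4 above and 3 below. In the 7 mesenchymal, mural and muscle classes *Atf3* had 0 above and 4 below.

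**Figure D3:**
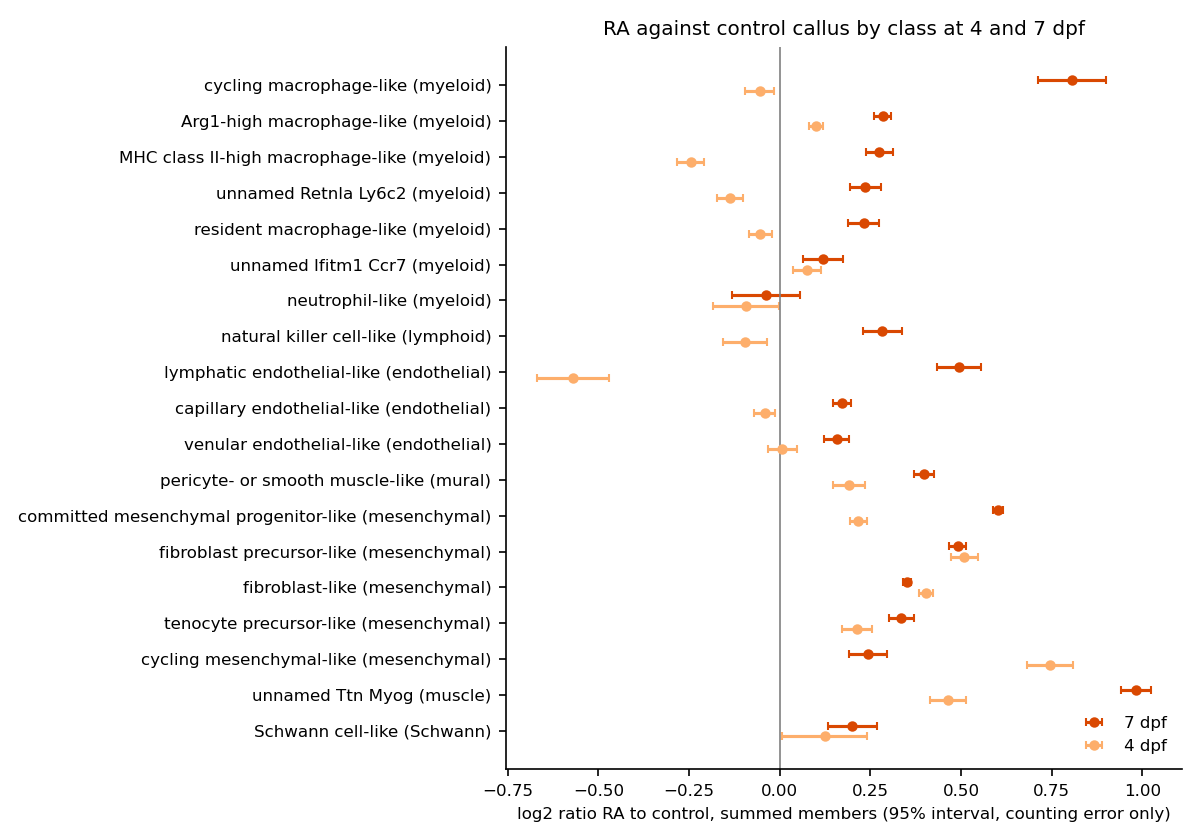
Log2 ratio of RA to control callus for the summed members (x axis) by class (y axis) at 7 dpf and 4 dpf, with exact 95% conditional intervals that cover counting error only. The 7 dpf points lie right of 0 in 18 of 19 classes, and the 4 dpf points have intervals left of 0 in 8 of the 11 myeloid, lymphoid and endothelial classes but right of 0 in all 7 mesenchymal, mural and muscle classes.

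By single members the sharing was uneven. At 7 dpf RA was above control in 19 of 19 classes for *Fos*, 18 for *Fosb*, *Jund* and *Egr1*, 17 for *Junb* and *Atf3*, 16 for *Jun* and 15 for *Fosl2* and *Ier2*. *Fosl1* could be compared in 17 classes and was higher in 13. Of 18893 genes 5.87% were higher in RA_7d in at least 15 classes, beside 9 of the 10 members, which had been chosen on this contrast. Scarce genes without UMIs in many classes cannot reach that number, which lowers the share. Of these genes 7207 had at least 20 CPM in the fixed mix of 1 or more libraries. No share was computed among genes of a level like the members'. *Fos* ranged from 1.02-fold in resident macrophage-like cells (428 and 436 CPM) to past 1.5-fold in 3 classes, one of them committed mesenchymal progenitor-like cells (412 and 657 CPM). *Junb* was lower in RA_7d in neutrophil-like (log2 ratio -0.31) and Schwann cell-like cells (-0.49), and *Atf3* in natural killer cell-like cells (-0.50).

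**Figure D4:**
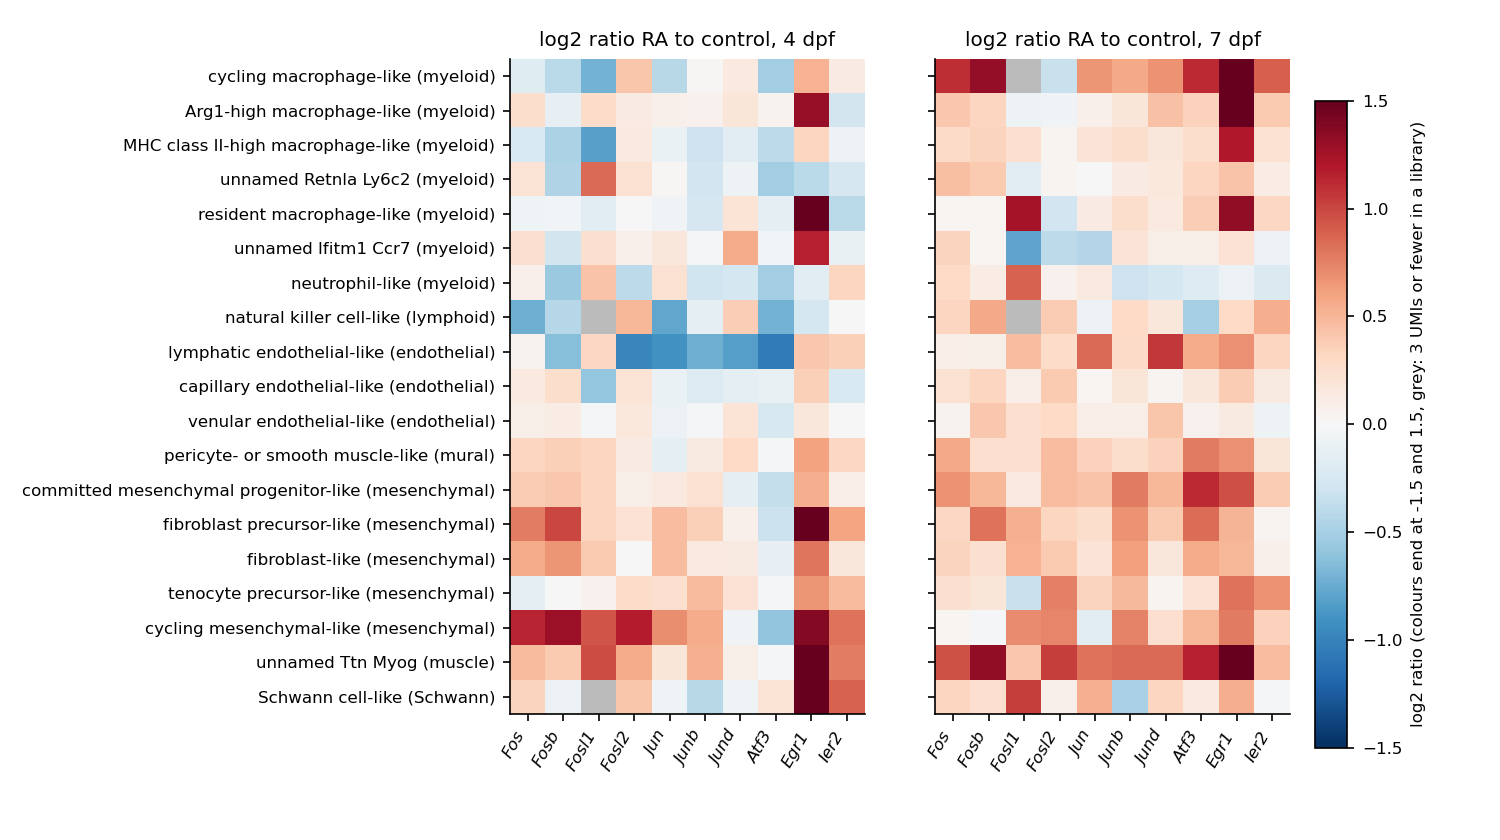
Log2 ratio of RA to control callus for each gene (x axis) and class (y axis) at each time; red is higher in RA, blue lower. The *Egr1* column is red in most classes at both times, whereas *Atf3* is lower in RA in 17 of 19 classes at 4 dpf and higher in 17 at 7 dpf.

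The *Egr1* difference was large in several macrophage classes. In Arg1-high macrophage-like cells it stood at 21.7, 28.1, 53.6 and 99.0 CPM in control_4d, control_7d, RA_4d and RA_7d, and the 7 dpf ratio was 3.52-fold (3.12 to 3.97). In resident macrophage-like cells it stood at 69.2, 97.2, 205 and 244 CPM (2.51-fold at 7 dpf, 2.15 to 2.93). In the *Ttn* *Myog* muscle class it stood at 72.6, 76.7, 277 and 277 CPM (3.61-fold, 3.21 to 4.06). In these 3 classes both RA libraries lay above both control libraries. In fibroblast-like cells, which had far more of it, *Egr1* stood at 342, 250.4, 595 and 354 CPM, with RA_7d close to control_4d. Neutrophil-like cells had little *Egr1* in any library (23.8 to 38.9 CPM). Over the myeloid classes in a fixed mix, *Egr1* was the single member past 1.5-fold at 7 dpf (2.50-fold) and at 4 dpf (1.88-fold), beside 3.53% of 12959 and 1.21% of 13772 genes compared there.

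In the mesenchymal classes taken in a fixed mix, 3 members passed 1.5-fold at 7 dpf, beside 3.36% of 17108 genes. They were *Atf3* (129 and 212 CPM, 1.64-fold), *Junb* (456 and 718 CPM, 1.57-fold) and *Egr1* (173 and 273 CPM, 1.57-fold). At 4 dpf *Egr1* alone did so (259 and 452 CPM), beside 3.45% of 14240 genes. *Fos* stood at 662 and 913 CPM and *Fosb* at 441 and 658 CPM. Shares of all genes by highest library were not computed for the mesenchymal classes. In these classes *Fos*, *Fosb*, *Fosl1*, *Jun*, *Junb*, *Egr1* and *Ier2* were highest in RA_4d. *Fosl2*, *Jund* and *Atf3* were highest in RA_7d, although *Atf3* in control_4d was close, at 198 CPM. The summed members were highest in RA_4d, at 3418, 2826, 4379 and 3817 CPM in control_4d, control_7d, RA_4d and RA_7d. In the endothelial classes no member passed 1.5-fold at 7 dpf, where 3.01% of 13373 genes did, or at 4 dpf, where 2.14% of 12565 did. There the summed members stood at 2691, 2639, 2551 and 3018 CPM.

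*Atf3* differed most clearly between times. At 4 dpf it was lower in RA callus in 17 of 19 classes, 13 of them with an interval below 0, and no class had an interval above 0. At 7 dpf it was higher in 17 classes, 14 of them with an interval above 0. In committed mesenchymal progenitor-like cells it stood at 142, 84.5, 112 and 183 CPM in control_4d, control_7d, RA_4d and RA_7d, and in resident macrophage-like cells at 558, 515, 504 and 666 CPM. Its level at 7 dpf was above that at 4 dpf in 17 of 19 classes in RA callus and in 7 of 19 in control callus.

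The members were also read from cells, each thinned to 4000 UMIs so that depth was equal. In fibroblast-like cells the median cell held 14 member UMIs in control_7d and 18 in RA_7d, and the 10th and 90th percentiles were 5 and 27 against 7 and 34. In the *Ttn* *Myog* class the median was 5 against 12, in natural killer cell-like cells 11 against 14, and in capillary endothelial-like cells 10 against 11. In fibroblast-like cells of RA_4d the median was 20 and the 90th percentile 41, above those of RA_7d. Cells with no member UMI at this depth made up 0.86% in control_7d and 0.25% in RA_7d. Without thinning the medians over all used classes were 36 and 54 UMIs. These last values carry the depth and the mix of classes of each library.

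**Figure D5:**
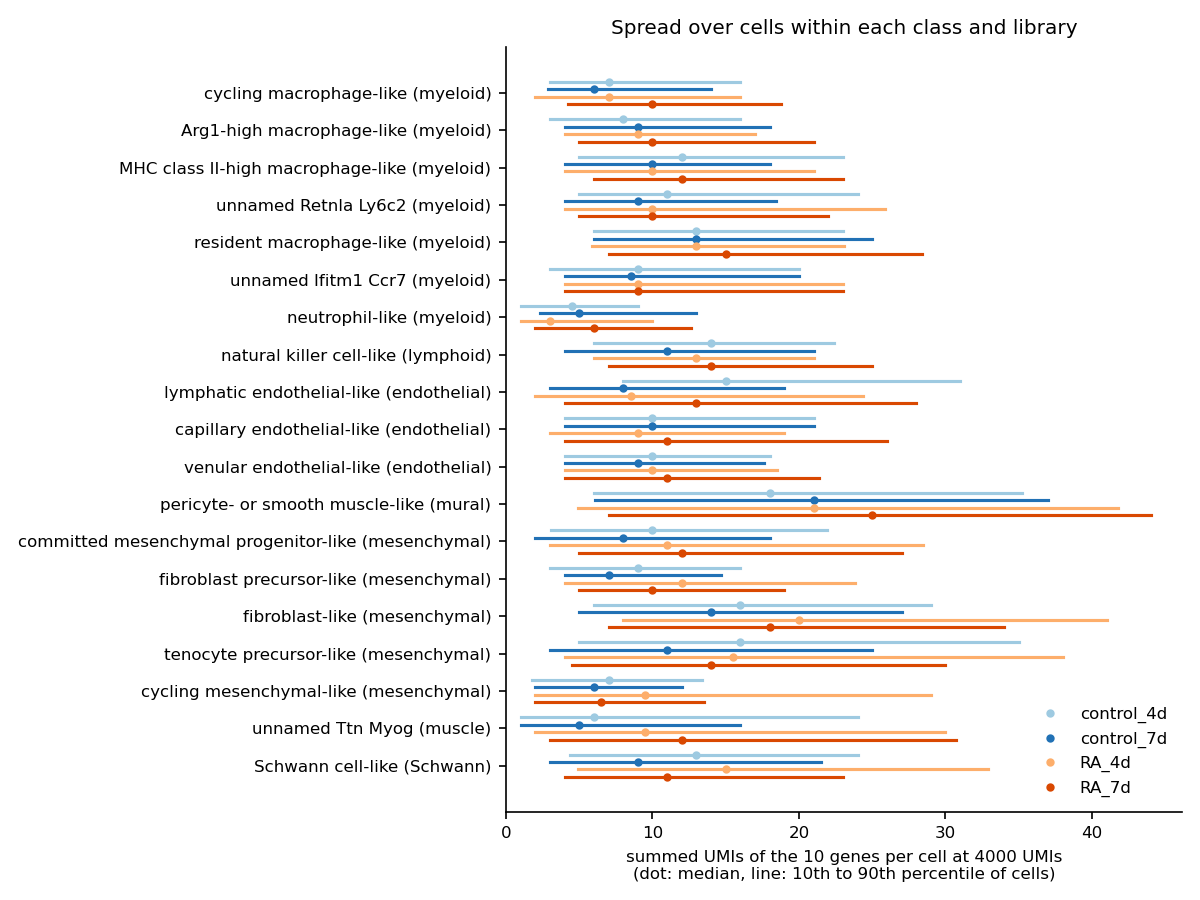
Summed UMIs of the 10 genes per cell at 4000 UMIs per cell (x axis, from 0) by class (y axis) and library (colour); dots are medians and lines run from the 10th to the 90th percentile of cells. In the *Ttn* *Myog* class the RA_7d median of 12 lies above the control_7d median of 5, while in *Ifitm1* *Ccr7* cells the 4 medians lie between 8.5 and 9.

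Within a class the members were also compared over single cells. Sparse counts lower such correlations, so whether the members vary as 1 block cannot be read from them. Over single fibroblast-like cells the highest of the 45 pairwise correlations was *Fos* with *Fosb* in every library (Pearson's r from 0.56 to 0.67), and the median pair was at 0.17 to 0.26. In Arg1-high macrophage-like cells the median pair was at 0.07 to 0.09, which in sparse counts is no finding. The lowest pair held *Fosl2* in every library in fibroblast-like, Arg1-high macrophage-like and capillary endothelial-like cells. The cells share library and depth, so these values are descriptions.

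Other genes of the early response stood higher as well. The gene lists of this and the following paragraphs were, like the members, chosen with earlier results of these data known. Their counts are therefore descriptions. Of 26 other immediate early genes, 24 were higher in RA_7d than in control_7d in the fixed mix, beside 53.0% of all genes compared. Of the 26, 2 were higher by 1.5-fold or more, beside 2.10% of all genes, and the median log2 ratio was 0.29. Those named by the rule were *Egr2*, a relative of *Egr1* (14.6 and 28.1 CPM in control_7d and RA_7d), the Krüppel-like factors *Klf4* (271 and 440.4 CPM) and *Klf2* (102 and 153 CPM), and the orphan nuclear receptor *Nr4a1* (129 and 187 CPM). At 4 dpf 15 of the 26 were higher, beside 58.3% of all genes compared, and the median was 0.02. Among 16 feedback genes, which limit the response, 15 were higher at 7 dpf, beside 53.0% of all genes, with a median of 0.27. None of these 16 genes reached 1.5-fold in either direction. They include the MAP kinase phosphatase *Dusp1* (316 and 403 CPM), the mRNA-decay factors *Zfp36* (208 and 256 CPM) and *Zfp36l1* (468 and 581 CPM), and the NF-κB inhibitor *Tnfaip3* (43.8 and 55.9 CPM).

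The rest of the pathway had smaller or mixed differences, read beside 53.0% of all genes higher at 7 dpf and 2.10% higher by 1.5-fold. Of 15 other AP-1 and bZIP genes 13 were higher at 7 dpf (median 0.14), among them *Mafk* (44.4 and 57.0 CPM), *Maff* (21.7 and 26.8 CPM) and *Crem* (60.4 and 73.8 CPM). *Jdp2*, a repressor that dimerises with Jun proteins, stood at 54.9 and 62.3 CPM at 7 dpf and 56.6 and 85.7 CPM at 4 dpf, a wider gap at the earlier time. Of 20 upstream kinases and factors 14 were higher (median 0.06). The kinase *Map3k8* stood at 31.2 and 43.9 CPM, *Map3k5* at 39.9 and 47.4 CPM, *Map3k1* at 64.3 and 75.2 CPM and the ternary complex factor *Elk4* at 44.2 and 50.9 CPM. Of 16 genes known as AP-1 targets 10 were higher and 6 lower, 3 of each by 1.5-fold or more, with a median log2 ratio of 0.24. The stromelysin *Mmp3* stood at 29.2 and 130.4 CPM, the cytokine *Il6* at 11.6 and 20.7 CPM and the monocyte chemokine *Ccl2* at 140.4 and 221 CPM. *Hmox1*, the haem oxygenase, stood at 921 and 367 CPM and was lower in RA_7d in all 19 classes. The others lower by that size were *Mmp9* (16.9 and 10.3 CPM) and *Timp1* (219 and 145 CPM), named here after their values were seen.

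The genes whose pattern was most like that of the summed members were ranked among 7198 genes, by the correlation of log2 levels centred within each class over 14 classes and 4 libraries (56 points that share libraries and depth). The first were *Mafk* (r = 0.84), *Errfi1*, a feedback inhibitor of the EGF receptor (0.84), *Elf1* (0.81), *Zfp36* (0.81), *Klf9* (0.80), *Ifrd1* (0.80), *Btg2* (0.79), *Klhl29* (0.78), *Myc* (0.77) and *Ccnl1* (0.77). Of these 10, 4 belong to the lists above, as do 103 of all the genes ranked. Since the lists were chosen with earlier results of these data known, nothing is read from that count. The members' own correlations with their sum ran from 0.47 for *Fosl1* to 0.94 for *Junb*, which holds the largest share of it.

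Several measures that bear on cell handling were read beside these values. Of 13 heat shock genes 7 were higher and 6 lower in RA_7d (median log2 ratio 0.04), beside 53.0% of all genes higher. *Hspa1a* stood at 58.0 and 76.8 CPM and *Hspa1b* at 50.8 and 64.2 CPM, and the mitochondrial chaperones *Hspd1* at 133 and 106 CPM and *Hspe1* at 309.6 and 250.2 CPM. The sum of the 13 genes was higher in RA_7d in 4 of 19 classes. It ranged over classes from 3463 to 6989 CPM in control_7d and from 3381 to 6499 CPM in RA_7d. Its largest parts were *Hspa8* (1324 and 1231 CPM in control_7d and RA_7d), *Hsp90ab1* (1389 and 1315 CPM) and *Hsp90aa1* (531 and 483 CPM). They were higher in RA_7d in 3, 4 and 4 classes, whereas *Dnajb4*, *Dnajb1* and *Bag3* were higher in 17, 16 and 16. All of these were named after their values were seen. *Malat1*, a nuclear RNA, differed in the same direction as the members: it stood at 11804 and 14718 CPM and was higher in RA_7d in 18 of 19 classes, the exception again being neutrophil-like cells (log2 ratio -0.03). Over the 19 classes the log2 ratio of the summed members and that of *Malat1* were correlated with r = 0.75 at 7 dpf and 0.83 at 4 dpf, and with the summed heat shock genes the values were -0.31 and 0.02. The log2 ratio of median UMIs per cell gave -0.72 and -0.55, and the difference in median mitochondrial percentage -0.59 and 0.18. The classes of a library share 1 preparation, so these 8 values are descriptions. The other nuclear RNA, *Neat1*, stood at 637 and 704 CPM. Of 8 housekeeping genes 3 were higher (median -0.12), beside the same 53.0% of all genes. Among them *Gapdh* (938 and 728 CPM), *Actb* (4915 and 4190.1 CPM), *Ppia* (1376 and 1145 CPM) and *Rplp0* (2573 and 2309 CPM) were lower in RA_7d, *Gapdh* in all 19 classes. The median mitochondrial share of UMIs was 2.50% in control_7d and 2.33% in RA_7d, and 2.70% and 3.60% of their cells were called doublets. The part of these measures in the members' levels was not tested.

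To measure mesenchymal RNA in other cells, 8 mesenchymal markers were summed in the 11 immune and endothelial classes. Apart from cycling macrophage-like cells they reached 1.17% to 3.52% of the fibroblast-like level in control_7d and 1.01% to 1.66% in RA_7d. In Arg1-high macrophage-like cells the same share of the fibroblast-like *Egr1* level comes to 3.79 CPM in control_7d and 5.47 CPM in RA_7d, beside the 28.1 and 99.0 CPM measured. The same share of the summed members differed by 17.1 CPM between both libraries, beside a measured difference of 519 CPM. The cycling macrophage-like class stood apart. In RA_7d its mesenchymal markers were at 9.99% of the fibroblast-like level, and that share of the members differed by 434 CPM beside a measured difference of 1302 CPM. Only the fibroblast-like level was used as a source, and the part of carried RNA in the members' levels was not tested. The *Ttn* *Myog* class held *Pax7*, a marker of muscle stem cells, at 224, 201, 399 and 342 CPM and *Myog*, a marker of differentiation, at 413, 394, 222 and 485 CPM in control_4d, control_7d, RA_4d and RA_7d, so its marker levels differed between libraries too. Median depth in that class was 14491 UMIs per cell in control_7d and 9772 in RA_7d.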

How the data were processed

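Single-cell libraries were prepared by the authors with the Chromium 3′ v3.1 kit and processed with Cell Ranger 7.0.1 on mm10, per the labels and the study's methods. The deposited matrices hold raw UMI counts per gene and barcode, 1 matrix per library, with 34038 barcodes; no deposited cell type annotation was used here. The members and gene lists used here were chosen with earlier results of these data known.

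Barcodes with 4000 to 50000 UMIs, 2000 to 7000 genes and at most 8% mitochondrial UMIs were kept, 5470, 7676, 4110 and 8223 in control_4d, control_7d, RA_4d and RA_7d. Libraries were integrated in Seurat 5.3.0 (R 4.3.3) by canonical correlation over 2000 variable genes and 30 dimensions, and clustered on 15 components at resolution 0.5, without the members and listed genes among the variable genes. Clusters were named from fixed markers, so class names are rebuilt and not the authors'. Doublets called by Scrublet (scanpy 1.11.5; 592 cells, 2.32%) were kept, and leaving them out was an alternative.

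UMIs were summed per class and library and divided by the class total. The fixed mix weights each of the 19 classes by its mean share over the 4 libraries. Ratios between libraries of a class's summed counts carry exact conditional intervals. Levels of a class or of all kept cells carry exact Poisson intervals (scipy 1.17.1). In a fixed mix the intervals are approximate: levels carry gamma intervals after Fay and Feuer, and log2 ratios carry normal intervals from the counting error. Genes with at least 50 UMIs over the libraries compared entered comparisons over all genes, with a pseudocount of 1 CPM for log2 ratios. No p-value was computed, since each condition had 1 library. The computation was tested on simulated data. Named genes were all members, up to 4 genes of each list with the largest log2 ratio at 7 dpf among those with at least 20 CPM, and the 10 genes most like the summed members, which were ranked over classes with at least 50 cells per library on log2(CPM + 10). Alternatives varied the cell filter, clustering, genes used to cluster, doublets, scaling, pseudocount, weights, class size and depth. Promoters were read from a RefSeq table of GRCm38.p6.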

Additional observations from a re-analysis of the deposited data

Results flagged for a closer look

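In 7 classes the summed members were higher in RA than in control callus at 7 dpf and lower at 4 dpf, and these classes are given here because their directions were opposite at the 2 times. With 1 library per condition the difference between times was not tested. The log2 ratio at 7 dpf minus that at 4 dpf was 0.52 in MHC class II-high macrophage-like cells, 0.29 in resident macrophage-like cells, 0.86 in cycling macrophage-like cells and 0.37 in *Retnla* *Ly6c2* cells. It was 0.38 in natural killer cell-like cells, 0.21 in capillary endothelial-like cells and 1.06 in lymphatic endothelial-like cells, where the control_4d and RA_4d libraries held 31 and 34 cells. *Atf3* in the fixed mix had opposite directions as well, with a difference of 0.59, also not tested.

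Barcodes outside the cell filter entered no class comparison, although part of them entered the setting with a looser cell filter. Read all together per library, they held the members at a higher level in RA than in control libraries. Their summed level was 3056 CPM in RA_7d against 2137 CPM in control_7d, and 2365 CPM in RA_4d against 2025 CPM in control_4d. These barcodes were not sorted into classes, so the levels are not set to a fixed mix. They also differed in depth: 2160, 2530, 1786 and 2083 barcodes held 59771455, 35417261, 46762636 and 25692027 UMIs in control_4d, control_7d, RA_4d and RA_7d.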

How the results depend on the processing

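No alternative turned the direction of the summed ratio at either time, and each of the 10 members stayed above 0 at 7 dpf in all 15 settings in which it was computed. At 7 dpf the log2 ratio of the summed members was 0.34. It was 0.49 with all cells of a library as 1 class and 0.51 when a looser cell filter was applied to that class. It was 0.36 and 0.33 at clustering resolutions of 0.25 and 1, 0.34 without integration, 0.35 with TMM scaling, 0.33 as a mean over cells, 0.33 with at least 100 cells per class and library, 0.34 with each cell thinned to 4000 UMIs and 0.34 without the cycling macrophage-like class. At 4 dpf the ratio of 0.15 became 0.11 with all cells as 1 class, 0.14 with the looser filter, 0.18 at resolution 0.25, 0.12 with TMM and 0.0923 with equal class weights. The number of members past 1.5-fold at 7 dpf was 1, and 2 with the looser filter. The summed members were highest in RA_7d in 11 of 19 classes, in 9 of 15 at resolution 0.25, 12 of 21 at resolution 1, 9 of 18 without integration, 8 of 10 with at least 100 cells per class and library, and 10 or 11 of 18 or 19 otherwise. Classes past 1.5-fold numbered 3 of 19, and between 2 and 4 of 10 to 21 in the alternatives. Leaving out the cycling macrophage-like class and leaving *Malat1* and mitochondrial genes out of the totals were chosen after seeing the data. Beyond the change of cell mix in the all-cell settings, the causes of these shifts were not tested.

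No paired analysis was possible because each condition had 1 library and the labels carry no replicate numbers. Counting intervals were narrow in large classes, so there the lack of replicate libraries limits the comparisons more than counting error does. Depth per cell also differed between libraries within classes. Over classes its log2 ratio was correlated with that of the summed members at -0.72 at 7 dpf and -0.55 at 4 dpf. The part of depth in the ratios was not tested beyond the thinned setting. Depth and cell number limit *Fosl1* and the classes with few cells in a library, down to 20 Schwann cell-like cells in RA_4d and 23 cycling macrophage-like cells in RA_7d.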

Other observations

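The share of single members differed between cell types. *Junb* made up 53.5% of the members' UMIs in natural killer cell-like cells (mean over the libraries) and 13.6% in the class with its lowest share, tenocyte precursor-like cells. For *Fos* the corresponding shares were 23.2% in tenocyte precursor-like cells and 4.20% in natural killer cell-like cells. Over all kept cells the *Fos* share was similar in the 4 libraries, at 16.6%, 17.0%, 18.4% and 17.0% in control_4d, control_7d, RA_4d and RA_7d.

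At 4 dpf *Fos* and *Fosb* had their highest ratios of RA to control in cycling mesenchymal-like cells, a class with 49 cells in control_4d and 56 in RA_4d. *Fos* stood at 273 and 604 CPM, *Fosb* at 172 and 418 CPM there, and *Egr1* at 76.2 and 198 CPM.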
